A study of Homo sapiens with 48 samples.

Results

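The genes described here are 172 human zinc finger genes that lie on autosomes other than chromosome 19 and are mostly free of the repressive histone mark H3K9me3 in the pancreatic cancer line ASPC1. They were chosen by name, by position and by measured H3K9me3 cover. A gene had to be protein-coding and carry a name made of ZNF, a number and at most 1 letter. It had to lie on an autosome other than 19. Less than 50% of its span had to be covered by the authors' H3K9me3 broad peaks. The table holds 509 protein-coding genes with such names. Of these, 250 lie on other autosomes, where 172 met the cover condition and 78 did not, 247 lie on chromosome 19, and 12 lie on sex chromosomes. ZNF664 was singled out because its count was lower in the libraries labelled siZNF274 in both lines that were transfected, so for ZNF664 that difference is a description and not a test.

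Most proteins with C2H2 zinc fingers bind DNA through arrays of fingers, and many carry a KRAB domain that recruits the corepressor TRIM28 and the histone methyltransferase SETDB1, which places H3K9me3. Large clusters of such genes, above all on chromosome 19, carry H3K9me3 over their own coding ends, and ZNF274, a KRAB zinc finger protein, is known to bind there. Zinc finger genes outside those clusters are a mixed group. Among them are old, widely expressed transcription factors, corepressor subunits, factors of RNA processing and of ribosome assembly, and SCAN-domain genes, besides KRAB genes that stand apart from a cluster.

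The study compared gene expression in 30 RNA-seq libraries, 3 for each of 10 groups, from 3 established pancreatic ductal adenocarcinoma lines. ASPC1 and CFPAC1 were transfected with an siRNA against ZNF274 (siZNF274) or with a control siRNA (siCTRL), or were treated with 5 µM azacitidine (AZA), a cytidine analog that blocks DNA methyltransferases, or with its solvent DMSO. Panc3.27 carried a vector that overexpresses ZNF274 (ZNF274_OE) or the vector alone. A further 18 CUT&RUN samples of ASPC1, 6 each for H3K9me3, ZNF274 and IgG, carried an shRNA against ZNF274 (shZNF274) or a control shRNA (shCTRL) induced by doxycycline at 1 µg/ml for 9 days. Of their data, only 1 merged H3K9me3 peak list was used here. Each siRNA, vector and shRNA contrast used cultured cells of a single line, so each result holds for that line.

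Library totals ran from 31415743 to 43383141 counts, and the 172 genes took 0.502% to 0.603% of them. ZNF274, the targeted gene, had 16.6, 19.2 and 22.4 CPM (counts per 1000000 counts, scaled by TMM within a line) in ASPC1 libraries labelled siZNF274, against 15.8, 16.3 and 20.6 CPM in siCTRL libraries. In CFPAC1 it had 32.6, 34.4 and 31.5 CPM in libraries labelled siZNF274, against 33.5, 34.0 and 35.7 CPM in siCTRL libraries. The groups overlapped in both lines, with a log2 fold change of 0.15 in ASPC1 and -0.07 in CFPAC1 (edgeR adjusted p = 0.305 and 0.424). Here and below, an edgeR adjusted p is from the quasi-likelihood test of edgeR, adjusted over all genes tested by the Benjamini-Hochberg method, with 0.05 as the threshold. The count of the targeted gene therefore does not show the knockdown, and every siRNA result below is given by the label of the library. In Panc3.27, ZNF274 had 133, 135 and 139 CPM in ZNF274_OE libraries, against 47.4, 50.4 and 49.4 CPM in vector libraries, a 2.77-fold rise (edgeR adjusted p = 4.17e-11). All lines expressed the 7 epithelial and ductal marker genes followed, and their summed level differed within every contrast. It was 6988 to 7693 CPM in ASPC1 libraries labelled siZNF274, against 9847 to 11105 CPM in siCTRL libraries, with 5 of the 7 genes lower and KRT7 higher. It was 7890 to 8255 CPM in CFPAC1 libraries labelled siZNF274, against 8909 to 10108 CPM with siCTRL. It was 9315 to 9604 CPM in ASPC1 with AZA, against 13584 to 15201 CPM with DMSO, and 8705 to 9007 CPM in CFPAC1 with AZA, against 9572 to 9980 CPM with DMSO. In Panc3.27 it was 5062 to 5109 CPM in ZNF274_OE libraries, against 5460 to 5675 CPM in vector libraries. In none of the 5 contrasts did the groups overlap, and the sum was lower with siZNF274, AZA and ZNF274_OE. The part of these marker shifts in the results below was not tested. The 5 leukocyte markers summed to 94.7 to 104.7 CPM in ASPC1 libraries labelled siZNF274, against 163.3 to 167.2 CPM with siCTRL, and to 86.7 to 110.7 CPM in ASPC1 with AZA, against 266 to 282 CPM with DMSO. Of the 5, LYZ and CD68 were tested. LYZ, the lysozyme gene, was called lower in both contrasts, while CD68 was not called with siZNF274 and was called higher with AZA. CD3E, the defining gene of T cells among them, had no count in 3 of these 4 groups. The 5 fibroblast markers summed to 52.9 to 163 CPM over all groups, and the 4 endothelial markers to 54.7 to 58.0 CPM in Panc3.27 with ZNF274_OE, against 30.3 to 30.8 CPM with the vector, and to at most 5.70 CPM elsewhere. In bulk RNA, fewer cells of a kind and less RNA per cell cannot be told apart.

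The H3K9me3 cover that chose the genes was low in most of them. No peak touched 105 of the 172 genes, 67 had some cover, and 40 had 10% to 50%. The median cover was 0%, against 89.5% in the 78 covered zinc finger genes off chromosome 19. Just inside the threshold lay ZNF239 with 46.6%, ZNF484 with 49.2%, ZNF316 with 49.5% and ZNF23 with 49.9%. Just outside it lay ZNF684 with 51.1% and ZNF25 with 53.5%. A promoter peak was annotated at 6 of the 172 genes, namely ZNF683, ZNF707, ZNF689, ZNF778, ZNF519 and ZNF280B. The genes ranged from 966 bases (ZNF593) to 961104 bases (ZNF385D) in length, with a median of 26832 bases, near the 25306 bases of the 78 covered genes. Of the 172 genes, 53 had another zinc finger gene within 100000 bases, compared with 58 of the 78 covered genes. By chromosome, the uncovered genes were 25 of 31 zinc finger genes on chromosome 16, 22 of 35 on chromosome 7, 13 of 20 on chromosome 1 and 13 of 18 on chromosome 8.

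In the authors' deposited peak table, H3K9me3 peaks touched these genes 141 times, with a peak counted once for each gene that it touched. Of these, the authors called 7 lower and 1 higher with shZNF274 than with shCTRL. Over all 63955 peaks, 0.640% were called lower and 0.383% higher. The genes with a lower peak were ZNF621, ZNF316, ZNF138, ZNF79, ZNF202, ZNF232 and ZNF519, and the gene with the higher peak was ZNF438. By the peaks that the authors found with shZNF274, ZNF79, ZNF202 and ZNF232 had no cover, against 8.44%, 12.7% and 26.6% over all peaks. The same held for genes without a called peak, such as ZNF853 (41.0% over all peaks) and ZNF311 (12.1%). Conversely, ZNF277, ZNF800 and ZNF396 had cover by the shZNF274 peaks and none by the shCTRL peaks. Among all genes tested in ASPC1 with siZNF274 against siCTRL, 45.7% passed the RNA test in either direction. Of the 7 genes with a lower peak, only ZNF232, a SCAN-domain gene, passed that test. It had 10.9, 9.08 and 9.70 CPM in libraries labelled siZNF274, against 8.28, 7.68 and 7.27 CPM in siCTRL libraries, without overlap and with a log2 fold change of 0.36 (edgeR adjusted p = 0.00564). The other 6 had log2 fold changes of -0.29 (ZNF519) to 0.21 (ZNF79), none past the threshold. The shRNA and siRNA samples are separate experiments.

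ZNF664 (ENSG00000179195.16, chr12:123971845-124015439 on hg38) had the largest siRNA difference of these genes in ASPC1. In CFPAC1 it had the second lowest log2 fold change, after ZNF385B (-0.89), which averaged 0.190 CPM in libraries labelled siZNF274 and 0.357 CPM in siCTRL libraries and did not pass (edgeR adjusted p = 0.126). ZNF664 is one of the most highly expressed of the 172 genes and lies head to head with CCDC92 in a region known from genetic studies of body fat and blood lipids. No H3K9me3 peak touched its span of 43595 bases. The RefSeq promoter window runs from 250 bases before the start used by RefSeq to 50 after it. That start lies inside the span given above, and so does the whole window. The window holds 51 CG pairs, and only 217 of 27305 RefSeq promoter windows of the same length hold more. It is shown because the gene's count moved while the window itself lies outside every peak. It is on the plus strand of GRCh38.p14 at chr12:123972965-123973264, with CG pairs in capitals.
ZNF664: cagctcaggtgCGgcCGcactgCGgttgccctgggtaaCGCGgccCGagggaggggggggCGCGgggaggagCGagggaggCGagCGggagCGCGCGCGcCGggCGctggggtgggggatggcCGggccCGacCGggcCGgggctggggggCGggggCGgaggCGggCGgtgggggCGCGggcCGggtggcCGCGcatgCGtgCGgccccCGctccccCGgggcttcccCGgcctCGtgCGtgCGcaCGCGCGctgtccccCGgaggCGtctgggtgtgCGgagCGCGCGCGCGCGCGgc
The window is 84.3% G or C, against a median of 58.3% over all windows, and holds the GC box GGGCGG (searched on both strands), which 44.6% of all windows hold. Neither CCAAT (in 35.7% of windows) nor the ETS core CCGGAAG (in 10.7%) was found on either strand.

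ZNF664 had 71.6, 71.5 and 66.5 CPM in ASPC1 libraries labelled siZNF274, against 188, 177 and 188 CPM in siCTRL libraries. In CFPAC1 it had 79.1, 90.8 and 92.1 CPM in libraries labelled siZNF274, against 160, 152 and 141 CPM in siCTRL libraries. All 6 libraries labelled siZNF274 lay well below all 6 siCTRL libraries. The level was 2.64 times lower in ASPC1 (log2 fold change -1.40, SE 0.05) and 1.73 times lower in CFPAC1 (-0.79, SE 0.06). The difference between the lines in this change was -0.63 (SE 0.08), which comes from the same contrast and is likewise given without a test. In the AZA and ZNF274_OE contrasts, which did not choose the gene, the log2 fold changes were between -0.21 and 0.01. ZNF664 had 176, 168 and 171 CPM in ASPC1 with AZA, against 208, 205 and 184 CPM with DMSO, a fall of 0.21 on the log2 scale (edgeR adjusted p = 0.00453). In CFPAC1 it had 180, 176 and 173 CPM with AZA, against 175, 174 and 175 CPM with DMSO, with no call (log2 fold change 0.01, edgeR adjusted p = 0.891). In Panc3.27 it had 215, 210 and 206 CPM in ZNF274_OE libraries, against 249, 234 and 231 CPM in vector libraries, a fall of 0.18 on the log2 scale (edgeR adjusted p = 0.00726). The siCTRL libraries of CFPAC1 were also below the DMSO libraries of that line, with 160, 152 and 141 CPM against 175, 174 and 175 CPM (log2 fold change -0.21). In ASPC1 the same contrast gave -0.11. The siCTRL libraries also entered the contrast that chose the gene, so both differences are given without a test. The groups did not overlap in ASPC1 with AZA or in Panc3.27. Over the 10 groups, the means ran from 69.9 ± 2.92 CPM (ASPC1 labelled siZNF274) and 87.4 ± 7.19 CPM (CFPAC1 labelled siZNF274) through 151 to 210 CPM in 7 groups to 238 ± 9.81 CPM (Panc3.27 vector; SD, n = 3).

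CCDC92, a coiled-coil protein gene of cilia and centrioles (chr12:123918660-123972831 on hg38), overlaps the annotated span of ZNF664 by 987 bases. It had 10.5, 10.8 and 10.3 CPM in ASPC1 libraries labelled siZNF274, against 25.4, 29.0 and 29.2 CPM in siCTRL libraries. In CFPAC1 it had 4.82, 6 and 6.67 CPM in libraries labelled siZNF274, against 8.23, 10.0 and 11.4 CPM in siCTRL libraries. The groups did not overlap in either line. CCDC92 fell by 1.40 on the log2 scale in ASPC1 (SE 0.08, edgeR adjusted p = 1.54e-09) and fell by 0.76 in CFPAC1 (SE 0.12, edgeR adjusted p = 3.11e-04). Like ZNF664, CCDC92 was called lower with AZA in ASPC1, at 19.7 CPM on average against 24.6 CPM with DMSO (log2 fold change -0.32, edgeR adjusted p = 0.00314). Unlike ZNF664, CCDC92 was also called lower with AZA in CFPAC1, at 8.66 CPM on average with AZA against 14.2 CPM with DMSO (log2 fold change -0.72, edgeR adjusted p = 2.79e-04). A test between ZNF664 and CCDC92 was not made. In CFPAC1, CCDC92 was also lower in siCTRL than in DMSO libraries, at 9.88 CPM on average with siCTRL (log2 fold change -0.53, edgeR adjusted p = 0.00469). The sources used here do not give the strand setting of the counting, so reads in the shared 987 bases cannot be assigned to either gene. RFLNA, which shares most of the span of ZNF664, had 21.2, 22.2 and 20.4 CPM in ASPC1 libraries labelled siZNF274, against 12.1, 15.7 and 16.3 CPM in siCTRL libraries, a rise of 0.53 on the log2 scale (edgeR adjusted p = 0.00122). The siCTRL libraries were themselves lower than the DMSO libraries of ASPC1 for RFLNA (log2 fold change -0.71, edgeR adjusted p = 1.87e-04), and the mean of 21.3 CPM in libraries labelled siZNF274 lay below the mean with DMSO.

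Of the 6 protein-coding genes that reach within 300 kb of ZNF664 on either side, itself included, CCDC92 was the one that passed as lower in both lines besides ZNF664, whose own fall chose it and is no test. RFLNA was not tested in CFPAC1. On the log2 scale, DNAH10 (1.15, edgeR adjusted p = 0.023) and TCTN2 (0.47, edgeR adjusted p = 9.27e-04) were higher in ASPC1 libraries labelled siZNF274 than in siCTRL libraries, and neither passed in CFPAC1 (edgeR adjusted p = 0.386 and 0.816). TCTN2 was likewise lower in siCTRL than in DMSO libraries of ASPC1 (log2 fold change -0.74, edgeR adjusted p = 2.06e-05), and its mean of 12.5 CPM in libraries labelled siZNF274 lay below the 15.1 CPM with DMSO. ATP6V0A2, a subunit of the vacuolar proton pump, was lower in CFPAC1 libraries labelled siZNF274 (-0.19 on the log2 scale, edgeR adjusted p = 0.0343) and did not pass in ASPC1 (-0.09, edgeR adjusted p = 0.239).

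In ASPC1 libraries labelled siZNF274, 33 of 149 tested genes rose and 22 fell relative to siCTRL libraries, with ZNF664, chosen for its fall, among the 22. Among all genes tested, 21.5% rose, 24.2% fell and 45.7% passed in either direction, against 36.9% of these zinc finger genes. Their median log2 fold change was 0.03, near the median of all genes (-0.00). Few changes were large. Only 2 genes were over 2-fold higher and 1 was over 2-fold lower, and 5 were over 1.5-fold in each direction. The other zinc finger sets had more higher than lower genes here. Higher and lower counts were 63 and 1 of 106 covered genes of chromosome 19 (median log2 fold change 0.45), 24 and 5 of 63 uncovered genes of chromosome 19 (median 0.23) and 24 and 6 of 61 covered genes of other autosomes (median 0.17). Without any single library of the fit, 36 of the 55 calls held in every refit, and unless stated otherwise the genes named below are among them.

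Of 13 genes that act on RNA, ribosomes or protein quality, ZNF593 and ZNF207 fell with siZNF274 in ASPC1 and ZNF106 rose, where 24.2% of all genes fell and 21.5% rose. The ZNF106 call was lost without siCTRL replicate 1 or 3, without any 1 siZNF274 replicate, and with only the 2 groups compared. ZNF593 (ENSG00000142684.9, chr1:26169908-26170873), whose yeast counterpart works in maturation of the large ribosomal subunit, had 11.1, 11.0 and 9.34 CPM in libraries labelled siZNF274, against 12.9, 15.3 and 14.6 CPM in siCTRL libraries. ZNF207, also called BuGZ, a microtubule-binding factor of chromosome alignment, had 149, 153 and 154 CPM in libraries labelled siZNF274, against 193, 179 and 164 CPM in siCTRL libraries. Neither gene overlapped between groups, and the log2 fold changes were -0.45 for ZNF593 and -0.23 for ZNF207 (edgeR adjusted p = 8.31e-04 and 0.00689). ZNF512 (ENSG00000243943.10, chr2:27582969-27623217) showed the largest fall after ZNF664, with 9.23, 10.7 and 9.70 CPM in libraries labelled siZNF274, against 19.5, 14.4 and 15 CPM in siCTRL libraries (log2 fold change -0.72, SE 0.12, edgeR adjusted p = 1.15e-04). ZNF33B, one of a pair of KRAB genes near the centromere of chromosome 10, had 33.4, 34.4 and 38.9 CPM in libraries labelled siZNF274, against 55.0, 47.2 and 54.8 CPM in siCTRL libraries. The groups lay apart, and the log2 fold change was -0.56 (edgeR adjusted p = 1.68e-05). ZNF165 (ENSG00000197279.5, chr6:28080568-28089563), a SCAN-domain cancer-testis antigen, had 3.05, 3.47 and 3.18 CPM in libraries labelled siZNF274, against 4.72, 4.72 and 5.18 CPM in siCTRL libraries (log2 fold change -0.59, edgeR adjusted p = 7.57e-04). ZNF362, ZNF777, ZNF770 and ZNF239 fell by 0.70, 0.44, 0.40 and 0.32 on the log2 scale. ZNF592 and ZNF532, paralogs that bind the chromatin reader ZMYND8, fell by 0.23 and 0.29.

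Of the genes that rose in ASPC1 libraries labelled siZNF274, ZNF518B led by size. This gene, whose product is known to bind the H3K9 methyltransferase G9a, had 3.75, 3.57 and 3.56 CPM in libraries labelled siZNF274, against 1.59, 1.42 and 1.93 CPM in siCTRL libraries, 2.21-fold higher (SE 0.17 on the log2 scale, edgeR adjusted p = 4.31e-05). ZNF488, known from differentiation of oligodendrocytes in the mouse, had 25.1, 22.6 and 22.3 CPM in libraries labelled siZNF274, against 11.6, 14.4 and 10.7 CPM in siCTRL libraries (log2 fold change 0.93, edgeR adjusted p = 6.66e-07). Neither overlapped between groups. ZNF70 had 6.45, 7.58 and 6.63 CPM in libraries labelled siZNF274, against 4.11, 4.36 and 3.34 CPM in siCTRL libraries (0.80, edgeR adjusted p = 3.87e-05). ZNF276, which overlaps the annotated spans of FANCA and VPS9D1, had 32.9, 31.0 and 35.4 CPM in libraries labelled siZNF274, against 22.4, 22.5 and 24.7 CPM in siCTRL libraries (0.51, edgeR adjusted p = 3.31e-05). ZNF250, ZNF22, ZNF467 and ZNF212 rose by 0.63, 0.46, 0.45 and 0.43 on the log2 scale, and ZNF335, a regulator of neural progenitors, by 0.22. ZNF843 had a fitted log2 fold change of 1.11, but its adjusted p of 0.0444 reached 0.138 without siZNF274 replicate 3 in edgeR's test. ZNF703, a corepressor gene amplified in luminal breast cancer, had 279, 272 and 261 CPM in libraries labelled siZNF274, against 264, 361 and 403 CPM in siCTRL libraries. Its groups overlapped, and its call (edgeR adjusted p = 0.0289) was lost without siCTRL replicate 3 (edgeR adjusted p = 0.163).

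In CFPAC1 libraries labelled siZNF274, 13 of 158 tested genes rose and 20 fell relative to siCTRL libraries. ZNF664, chosen for its fall, is among the 20. The background shares over all genes were 11.6% higher, 13.2% lower and 24.8% in either direction, against 20.9% of these genes. The median log2 fold change was -0.01. With upper quartile scaling in place of TMM the split was 20 higher and 17 lower, so which direction held more genes depended on the scaling. The count of lower genes was 10 without siZNF274 replicate 2 and 12 without siZNF274 replicate 1, siCTRL replicate 1 or siCTRL replicate 2. Covered genes of chromosome 19 were again mostly higher in this line, with 52 higher and 1 lower of 160 (median 0.23). Of the 33 calls, 18 held in every refit that left out 1 library.

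ZNF467 (ENSG00000181444.13, chr7:149764182-149773588), a factor known in the mouse for steering marrow stromal cells toward fat rather than bone, rose most in CFPAC1. It had 19, 17.6 and 18.3 CPM in libraries labelled siZNF274, against 6.58, 9.60 and 9.13 CPM in siCTRL libraries, 2.17-fold higher (log2 fold change 1.12, SE 0.12, edgeR adjusted p = 9.5e-06). The groups were far apart. ZNF608, the paralog of the transcription factor gene ZNF609, had 18.2, 16.6 and 17.6 CPM in libraries labelled siZNF274, against 9.24, 9.93 and 11.8 CPM in siCTRL libraries (0.76, edgeR adjusted p = 4.29e-05). ZNF469, mutated in brittle cornea syndrome, had 9.72, 10.9 and 9.96 CPM in libraries labelled siZNF274, against 5.08, 6.28 and 6.83 CPM in siCTRL libraries (0.75, edgeR adjusted p = 8.67e-04). Neither ZNF608 nor ZNF469 overlapped between groups. ZNF704, ZNF821 and ZNF652 rose by 0.73, 0.44 and 0.40 on the log2 scale. ZNF217, a corepressor-binding oncogene of chromosome 20 and the gene with the highest mean count here, had 223, 198 and 201 CPM in libraries labelled siZNF274, against 175, 173 and 176 CPM in siCTRL libraries (0.25, edgeR adjusted p = 0.00712). Below ZNF664, the falls with full separation included ZNF165 (-0.50), ZNF593 (-0.50), ZNF512 (-0.46), ZNF215 (-0.44) and ZNF746 (-0.37), the last also called PARIS and known as a target of the ubiquitin ligase parkin.

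Between the lines, 6 of 146 genes tested in both rose in both and 11 fell in both with siZNF274, and none passed in opposite directions. ZNF664, chosen for this, is one of the 11. These are 4.11% and 7.53% of the 146. Of all 15284 genes tested in both lines, 6.78% rose in both, 9.51% fell in both and 245 genes passed in opposite directions. The genes that rose in both were ZNF467, ZNF232, ZNF740, ZNF513, ZNF654 and ZNF608. ZNF740 had 58.9, 54.5 and 56.9 CPM in ASPC1 libraries labelled siZNF274, against 44.2, 40.5 and 47.8 CPM in siCTRL libraries, and 45.5, 49.6 and 47.9 CPM in CFPAC1 libraries labelled siZNF274, against 34.8, 38.1 and 39.2 CPM in siCTRL libraries. ZNF740, which overlaps CSAD and ITGB7, and ZNF513, which overlaps SNX17, separated the groups fully in both lines, with ZNF740 at 0.36 and 0.35 and ZNF513 at 0.35 and 0.37 on the log2 scale in ASPC1 and CFPAC1. Besides ZNF664, the genes that fell in both included ZNF165, ZNF512, ZNF593 and ZNF207, whose calls held without any 1 library in both lines. ZNF593 had 5.04, 5.69 and 5.78 CPM in CFPAC1 libraries labelled siZNF274, against 6.78, 8.71 and 7.81 CPM in siCTRL libraries, and ZNF207 had 137, 144 and 140 CPM, against 193, 168 and 158 CPM. The last of the 11 was ZNF142, at -0.18 in both. The call of ZNF608 in ASPC1 was lost without siZNF274 replicate 3 (edgeR adjusted p = 0.105), and in CFPAC1 that of ZNF232 without siCTRL replicate 1 (0.105) and of ZNF654 without siCTRL replicate 2 (0.0775). In CFPAC1 the calls of ZNF239, ZNF774, ZNF777 and ZNF770 were each lost without some single library. The highest adjusted p was 0.0502 for ZNF239 without siCTRL replicate 2, 0.0594 for ZNF774 without siZNF274 replicate 1, 0.147 for ZNF777 without siCTRL replicate 1 and 0.0695 for ZNF770 without siZNF274 replicate 2 (all by edgeR). In ASPC1 those of ZNF215 and ZNF774 reached 0.111 without siCTRL replicate 1 and 0.152 without siZNF274 replicate 2.

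**Figure D1:**
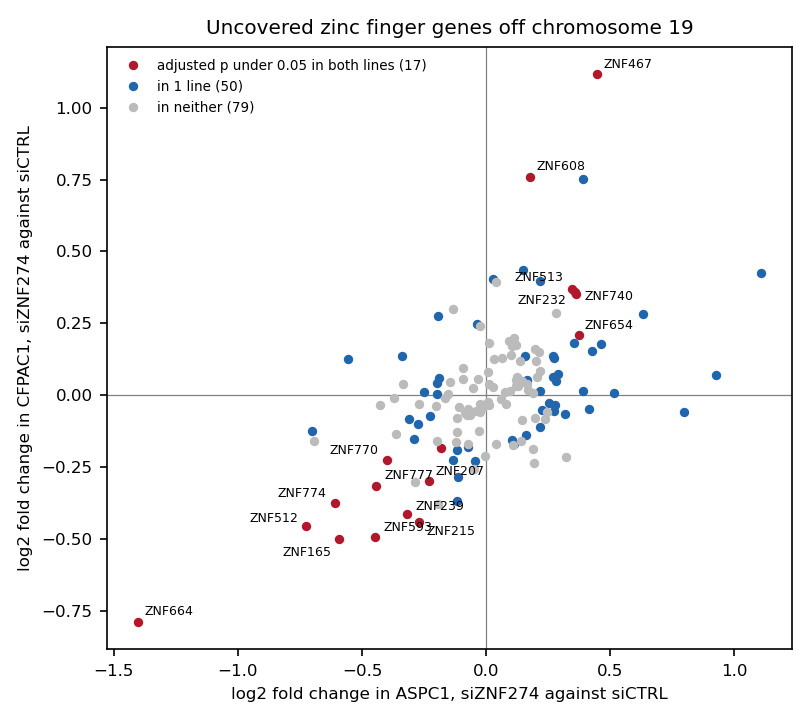
Log2 fold change of each zinc finger gene tested in both lines, libraries labelled siZNF274 against siCTRL libraries, in ASPC1 (horizontal) and CFPAC1 (vertical). ZNF664 lies at -1.40 and -0.79, apart from the rest, and ZNF467 lies highest in CFPAC1, at 0.45 and 1.12. Colours mark the 17 genes called in both lines, 50 called in 1 and 79 in neither, with ZNF664, chosen for its fall, among the 17.

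The change with siZNF274 itself differed between ASPC1 and CFPAC1 in 18 of 161 genes, with a positive difference (ASPC1 minus CFPAC1) in 8 and a negative one in 10. This is 11.2%, against 16.6% of all genes tested, of which 7.37% were positive and 9.28% negative as shares of all. ZNF664, chosen for its fall with siZNF274, is among the 10. Of these zinc finger genes, 146 passed the filter on low counts in both lines fitted alone. Others entered the joint fit through a single line, and their change in the other line rests on few counts. With upper quartile scaling the counts were 11 and 9, and without siZNF274 replicate 2 of CFPAC1 the 8 became 5. ZNF488 and ZNF70 showed the largest positive differences among the called genes, 0.84 each. In CFPAC1, ZNF488 had 14.1, 16.9 and 20.8 CPM in libraries labelled siZNF274, against 17.0, 17.5 and 14.9 CPM in siCTRL libraries, and ZNF70 had 14.7, 13.9 and 14.8 CPM, against 15.2, 15.6 and 14.5 CPM. Both overlapped between groups there, while both had separated in ASPC1 (edgeR adjusted p of the difference = 2.59e-04 for ZNF488 and 2.88e-05 for ZNF70). ZNF33B had a difference of -0.70 (edgeR adjusted p = 1.78e-05), with 31.4, 36.1 and 34.5 CPM in CFPAC1 libraries labelled siZNF274, against 34.2, 29.8 and 29.5 CPM in siCTRL libraries. ZNF467 and ZNF608 had differences of -0.69 and -0.60, both larger in CFPAC1. For ZNF467, ZNF488 and ZNF165 the siCTRL libraries also differed from the DMSO libraries. In siCTRL against DMSO, ZNF467 was 0.79 higher in ASPC1, ZNF488 was 0.77 lower in ASPC1 and 0.66 lower in CFPAC1, and ZNF165 was 0.68 lower in ASPC1 and 0.34 lower in CFPAC1, on the log2 scale. The CFPAC1 call of ZNF165 was lost without DMSO replicate 2 (edgeR adjusted p = 0.0598). In that contrast 18 of 149 genes were higher and 19 lower in ASPC1, where the background over all genes was 15.9% and 14.2%, or 30.1% in either direction; the 18 became 11 without siCTRL replicate 3. In CFPAC1, 5 of 158 were higher and 10 lower, where it was 7.3% and 8.22%, or 15.5%; the 15 fell to 7 without siCTRL replicate 2 and 8 without DMSO replicate 2. The siCTRL libraries are shared between these contrasts.

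With AZA in ASPC1, 21 of 149 genes rose and 24 fell relative to DMSO. The background was 17.2% higher, 18.6% lower and 35.8% in either direction, and 30.2% of these genes passed. The median log2 fold change was 0.02. The 45 calls fell to 27 without DMSO replicate 2, the 21 higher genes became 11, 12 and 11 without AZA replicate 3, DMSO replicate 1 and DMSO replicate 2, and 24 of them held in every refit without 1 library. ZNF518B rose most, with 4.43, 3.72 and 3.41 CPM with AZA, against 1.15, 1.72 and 1.41 CPM with DMSO, 2.7-fold higher (log2 fold change 1.43, SE 0.17, edgeR adjusted p = 6.57e-06). ZNF618, whose product binds the methylated-DNA reader UHRF2, had 0.944, 0.781 and 0.929 CPM with AZA, against 0.332, 0.535 and 0.320 CPM with DMSO, 2.23-fold higher (edgeR adjusted p = 0.00499). Neither gene overlapped between groups, though both are low in ASPC1. ZNF385A, an RNA-binding partner of p53, had 5.69, 6.06 and 5.19 CPM with AZA, against 2.22, 3.01 and 3.68 CPM with DMSO (0.93, edgeR adjusted p = 0.00104). ZNF469, ZNF696, ZNF512B and ZNF367 rose by 0.79, 0.61, 0.42 and 0.36 on the log2 scale, ZNF512B being a factor that binds the NuRD complex. ZNF843 had a fitted 1.19, lost without AZA replicate 3 (edgeR adjusted p = 0.175). Of the falls, ZNF165 was the largest among those without overlap, with 4.03, 5.02 and 4 CPM with AZA, against 7.67, 8.34 and 7.35 CPM with DMSO (-0.84, SE 0.11, edgeR adjusted p = 1.97e-05). ZNF138, ZNF652, ZNF608, ZNF277, ZNF621 and ZNF827 fell by 0.59, 0.40, 0.39, 0.36, 0.34 and 0.33.

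With AZA in CFPAC1, 11 of 158 genes rose and 22 fell relative to DMSO, and none by 2-fold. The background was 12.2% higher, 13.5% lower and 25.7% in either direction, and 20.9% of these genes passed. With upper quartile scaling the split was 19 higher and 17 lower. The 33 calls fell to 16 without DMSO replicate 2, and to 20, 19 and 18 without AZA replicates 1, 2 and 3, and only 11 held in every refit. ZNF609, a partner of the Integrator complex, had 131, 131 and 129 CPM with AZA, against 199, 220 and 183 CPM with DMSO (log2 fold change -0.62, SE 0.06, edgeR adjusted p = 3.39e-06). The 3 AZA libraries were almost level and all below the DMSO libraries. ZNF395 had 35.0, 34.6 and 37.0 CPM with AZA, against 49.0, 48.5 and 50.2 CPM with DMSO (-0.47, edgeR adjusted p = 1.83e-05). ZNF217 had 159, 160 and 161 CPM with AZA, against 206, 215 and 184 CPM with DMSO (-0.34, edgeR adjusted p = 7.5e-04). ZNF462, ZNF618, ZNF827 and ZNF143, an activator of many housekeeping promoters, fell by 0.35, 0.33, 0.32 and 0.32 on the log2 scale. ZNF703 had 86.9, 81.3 and 83.8 CPM with AZA, against 54.6, 59.6 and 70.7 CPM with DMSO, a rise of 0.45 (edgeR adjusted p = 4.61e-04). ZNF771 and ZNF589 rose by 0.59 and 0.45.

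The AZA change differed between the lines in 22 of 161 genes, 12 with a positive and 10 with a negative difference, ASPC1 minus CFPAC1. This is 13.7%, against 17.3% of all genes tested, of which 8.65% were positive and 8.66% negative as shares of all. Of these zinc finger genes, 146 passed the filter on low counts in both lines fitted alone. Others entered the joint fit through a single line, and their change in the other line rests on few counts. ZNF521, with 1, 1 and 0 counts in CFPAC1 DMSO libraries, is such a gene and is among the 10. The 10 negative differences became 4 without DMSO replicate 3 of CFPAC1, and 6 each without AZA replicate 3 or DMSO replicate 2 of ASPC1 or AZA replicate 1 of CFPAC1. In ASPC1, ZNF618 rose, and in CFPAC1 it fell, with 16.3, 16.2 and 16.9 CPM with AZA, against 20.8, 22.5 and 19.1 CPM with DMSO (difference 1.49, SE 0.23, edgeR adjusted p = 2.5e-05). It was the only one of the 146 genes tested in both lines that passed in opposite directions. Among all 15284 genes tested in both, 521 did so. ZNF609 had a difference of 0.56 (edgeR adjusted p = 9.07e-06), since in ASPC1 it had 99.9, 96.5 and 96.8 CPM with AZA, against 105, 103 and 96.7 CPM with DMSO, with overlap. ZNF385A (0.97), ZNF22 (0.45), ZNF395 (0.43), ZNF512B (0.37) and ZNF217 (0.31) also differed upward, and ZNF165 (-0.58) and ZNF608 (-0.51) downward. Both lines shared 5 higher and 9 lower genes, 3.42% and 6.16% of 146, against 5.04% and 5.69% of all genes tested in both. Of these, ZNF827 fell in both by 0.33 and 0.32 and ZNF462 by 0.22 and 0.35 in ASPC1 and CFPAC1. The ZNF827 call held in every refit in both lines, while that of ZNF462 in ASPC1 was lost without DMSO replicate 2 (edgeR adjusted p = 0.0686).

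By H3K9me3 cover, the called genes were spread as follows. With AZA against DMSO in ASPC1, 17 rose and 10 fell of 93 tested genes with no cover (median log2 fold change 0.06), 3 and 7 of 21 with cover up to 10% (median -0.05), and 1 and 7 of 35 with 10% to 50% (median -0.08). The covered genes off chromosome 19 had 1 and 16 of 61 (median -0.11), and over all genes 17.2% rose and 18.6% fell. With AZA in CFPAC1 the counts were 10 and 11 of 97 with no cover (0.06), 1 and 6 of 24 (-0.09), 0 and 5 of 37 (-0.04), and 4 and 4 of 70 covered genes (-0.01), where 12.2% of all genes rose and 13.5% fell. With ZNF274_OE in Panc3.27 they were 16 and 19 of 96, 1 and 7 of 22 and 3 and 7 of 35 by increasing cover, and 9 and 7 of 67 covered genes, where 19.8% of all genes rose and 17.1% fell. The peaks were measured in ASPC1 only, and these counts are a description without a test of the difference between the strata. With siZNF274 in ASPC1, 23 rose and 14 fell of 93, 5 and 2 of 21, 5 and 6 of 35, and 24 and 6 of 61 covered genes, where 21.5% of all genes rose and 24.2% fell.

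**Figure D2:**
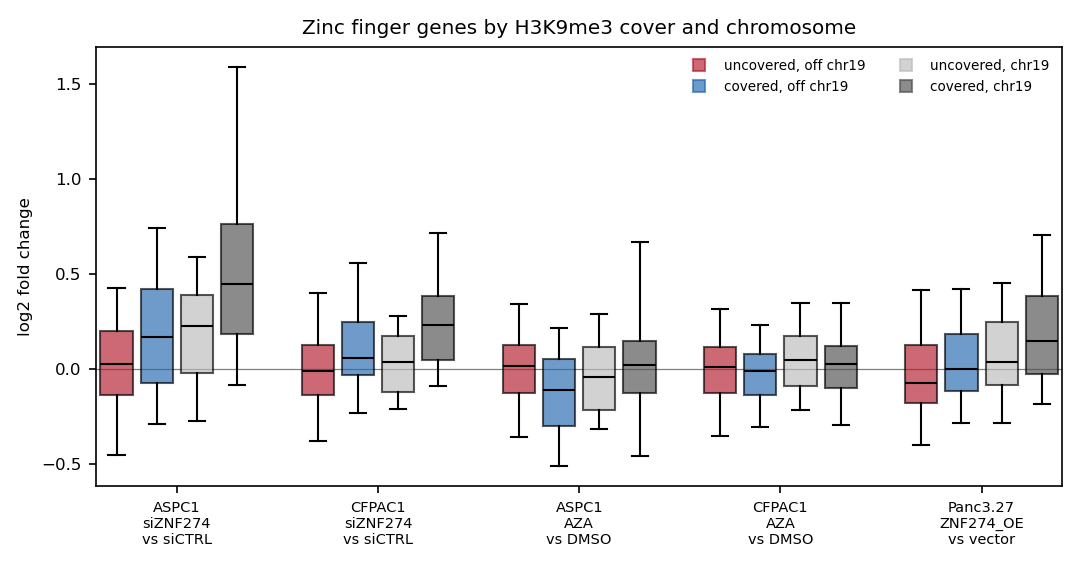
Log2 fold changes of zinc finger genes in 5 comparisons, split by H3K9me3 cover and by chromosome; boxes hold the middle of the genes from the 25th to the 75th percentile with the median as a line, and whiskers reach the 5th and 95th percentiles. The uncovered genes off chromosome 19 centre near 0 in every comparison (medians of -0.07 to 0.03), while covered genes of chromosome 19 have medians of 0.45 in ASPC1 and 0.23 in CFPAC1 with siZNF274.

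With ZNF274_OE in Panc3.27, 20 of 153 genes rose and 33 fell relative to the vector, with a median log2 fold change of -0.07. Over all genes, 19.8% rose, 17.1% fell and 36.9% passed in either direction, and 34.6% of these genes passed. Of the 53 calls, 29 held in every refit without 1 library. Covered genes of chromosome 19 had 51 higher and 5 lower of 139 (median 0.15). ZNF786 (ENSG00000197362.15, chr7:149069641-149090782), a KRAB gene at one end of a group of zinc finger genes on chromosome 7, had 17.3, 17.4 and 17.8 CPM in ZNF274_OE libraries, against 9.08, 8.18 and 9.50 CPM in vector libraries. It was 1.96-fold higher without overlap (log2 fold change 0.97, SE 0.08, edgeR adjusted p = 4.7e-07). ZNF165 had 22.6, 21.4 and 22.6 CPM in ZNF274_OE libraries, against 15.2, 15.3 and 16.2 CPM in vector libraries (0.51, edgeR adjusted p = 3.42e-05). ZNF165 was thus higher with ZNF274_OE and lower in the libraries labelled siZNF274 of both other lines. ZNF277, whose product is known to bind a protein of the small ribosomal subunit, had 17.8, 16.5 and 16.3 CPM in ZNF274_OE libraries, against 11.6, 11.3 and 9.93 CPM in vector libraries (0.62, edgeR adjusted p = 3.88e-05). ZNF775, ZNF862, ZNF517, ZNF496, ZNF516 and ZNF217 rose by 0.85, 0.65, 0.56, 0.42, 0.34 and 0.25 on the log2 scale.

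ZNF618 fell most with ZNF274_OE, with 3.05, 3.39 and 3.08 CPM in ZNF274_OE libraries, against 6.44, 4.79 and 4.62 CPM in vector libraries (log2 fold change -0.73, SE 0.14, edgeR adjusted p = 0.00128). ZNF326, a subunit of the DBIRD complex that couples transcript elongation to splicing, had 48.7, 49.1 and 52.0 CPM in ZNF274_OE libraries, against 62.4, 68.2 and 64.7 CPM in vector libraries (-0.38, edgeR adjusted p = 6.01e-05). Neither gene overlapped between groups. ZNF207 had 183, 173 and 186 CPM in ZNF274_OE libraries, against 238, 229 and 210 CPM in vector libraries (-0.32, edgeR adjusted p = 3e-04). ZNF512 had 14.8, 13.1 and 12.8 CPM in ZNF274_OE libraries, against 18.9, 18.8 and 16.1 CPM in vector libraries (-0.40, edgeR adjusted p = 0.00192). Both ZNF207 and ZNF512 were therefore lower with ZNF274_OE as well as in the libraries labelled siZNF274. ZNF469, ZNF620, ZNF365, ZNF778 and ZNF70 fell by 0.49, 0.46, 0.42, 0.40 and 0.38 on the log2 scale.

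By known role, 13 of the 172 genes act on RNA, ribosomes or protein quality. Over all genes tested, the shares higher and lower were 21.5% and 24.2% with siZNF274 in ASPC1, 11.6% and 13.2% with siZNF274 in CFPAC1, 17.2% and 18.6% with AZA in ASPC1, 12.2% and 13.5% with AZA in CFPAC1, and 19.8% and 17.1% with ZNF274_OE. Of the 13, 1 rose and 2 fell with siZNF274 in ASPC1, 1 and 4 in CFPAC1, 2 and 1 with AZA in ASPC1, 1 and 0 in CFPAC1, and 1 and 4 with ZNF274_OE. Among 33 of the 172 genes that are well-studied regulators of transcription, 7 rose and 5 fell of 31 tested with siZNF274 in ASPC1, 3 and 3 of 30 in CFPAC1, 3 and 5 of 31 with AZA in ASPC1, 3 and 9 of 30 in CFPAC1, and 4 and 8 of 30 with ZNF274_OE. The SCAN-domain genes gave 2 and 3 of 13, 1 and 3 of 14, 0 and 2 of 13, 0 and 2 of 14, and 3 and 3 of 14 in the same order. Outside the 172 genes, the corepressor machinery that KRAB proteins recruit was followed as a list of 23 genes, in which 3 rose and 4 fell, 0 and 5, 5 and 1, 2 and 6, and 1 and 11. TRIM28 averaged 919 CPM in ZNF274_OE libraries and 1085 CPM in vector libraries (log2 fold change -0.24, edgeR adjusted p = 0.00175), and SETDB1 averaged 78.4 CPM and 66.5 CPM in the same groups (0.24, edgeR adjusted p = 0.00139). DNMT1 averaged 144.1 CPM in ASPC1 libraries labelled siZNF274 and 182.3 CPM in siCTRL libraries (-0.34, edgeR adjusted p = 6.0e-05).

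More of the 172 genes were called between ASPC1 and CFPAC1 than in any contrast within a line. In DMSO, 75 of 161 tested genes were higher and 63 lower in ASPC1 than in CFPAC1, 85.7% in all, and the background over all genes was 36.3% higher, 41.0% lower and 77.4% in either direction. The median log2 fold change was 0.08, against -0.06 over all genes, a shift of the whole table that reached -0.16 with upper quartile scaling, where 64 genes were higher and 70 lower. Line and handling cannot be told apart in this contrast. In all, 19 genes were over 2-fold higher and 27 over 2-fold lower in ASPC1. ZNF703 had 228, 274 and 303 CPM in ASPC1, against 54.6, 59.6 and 70.7 CPM in CFPAC1, and ZNF608 had 46.0, 47.4 and 42.4 CPM in ASPC1, against 10.0, 11.6 and 9.54 CPM in CFPAC1. Both were 4.71-fold higher in the joint fit, without overlap. ZNF706 had 138, 134 and 128 CPM in ASPC1, against 44.0, 43.7 and 45.8 CPM in CFPAC1, and ZNF697 had 2.15, 1.58 and 2.21 CPM in ASPC1, against 25.2, 26.9 and 27.1 CPM in CFPAC1. On chromosome 16, 9 of these genes lie within chr16:30378106-30787205 (ZNF48, ZNF771, ZNF768, ZNF747, ZNF764, ZNF688, ZNF785, ZNF689 and ZNF629), a group chosen after its values were seen. All 9 were called higher in ASPC1, with a median log2 fold change of 0.73, from 0.40 (ZNF689) to 1.19 (ZNF688). In the group of 8 on chromosome 7, 5 were higher and 2 lower, and in the group of 4 on chromosome 8, 3 were higher.

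The largest differences between lines were genes with no or almost no count in 1 line. ZNF280B had 0 counts in all 3 ASPC1 DMSO libraries, against 602, 581 and 531 counts in CFPAC1 DMSO libraries, at least 187-fold lower in ASPC1 when each ASPC1 library is set to a floor of 3 counts. ZNF365, known for a role in genome stability, had 0 counts in ASPC1, against 416, 394 and 446 counts in CFPAC1 (at least 137-fold lower). ZNF18, a SCAN and KRAB gene, had 0 counts in ASPC1, against 158, 178 and 169 counts in CFPAC1 (at least 55.1-fold lower). ZNF804A, a gene known from psychiatric genetics, had 0 counts in ASPC1, against 98, 85 and 78 counts in CFPAC1 (at least 28.5-fold lower). The opposite held for ZNF518B, with 45, 61 and 53 counts in ASPC1, against 0 in CFPAC1 (at least 18.1-fold higher), and for ZNF521, a cofactor of early blood and neural progenitors, with 2857, 2359 and 2603 counts in ASPC1, against 1, 1 and 0 counts in CFPAC1. The ratio for ZNF521 was 3983 (95% counting interval 1102 to 32894). In Panc3.27, ZNF18 averaged 12.8 CPM with ZNF274_OE and 10.1 CPM with the vector, ZNF518B 47.9 and 49.0 CPM, and ZNF521 had 2 counts over each group of 3 libraries. Intervals and floors cover counting error only.

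AZA blocks the enzymes that methylate CG pairs of DNA. The promoter windows of 4 of these genes, each without a count in the DMSO libraries of 1 line, are shown and were picked by hand as rich in CG. They hold 39 (ZNF365), 33 (ZNF18), 36 (ZNF804A) and 35 (ZNF518B) CG pairs, against a median of 14 over 27305 windows of the same length, with a 75th percentile of 28. The windows are from RefSeq on GRCh38.p14, read 5′ to 3′ on the strand of the gene with CG pairs in capitals, at chr10:62374119-62374418 on the plus strand, chr17:11997426-11997725 on the minus strand, chr2:184598279-184598578 on the plus strand and chr4:10457377-10457676 on the minus strand. The windows of other genes with no or almost no count in 1 line, such as ZNF280B and ZNF521, are not shown. Since the 4 windows were picked as rich in CG, their CG pairs against all windows are a description and no test. The 4 windows were not set against those of the other zinc finger genes. DNA methylation was not measured.
ZNF365: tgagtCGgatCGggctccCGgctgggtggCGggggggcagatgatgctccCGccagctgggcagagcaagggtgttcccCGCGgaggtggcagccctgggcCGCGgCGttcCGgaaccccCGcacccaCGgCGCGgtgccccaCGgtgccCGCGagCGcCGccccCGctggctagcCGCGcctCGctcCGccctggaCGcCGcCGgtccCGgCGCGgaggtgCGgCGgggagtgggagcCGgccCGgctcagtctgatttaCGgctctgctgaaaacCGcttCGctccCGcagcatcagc
ZNF18: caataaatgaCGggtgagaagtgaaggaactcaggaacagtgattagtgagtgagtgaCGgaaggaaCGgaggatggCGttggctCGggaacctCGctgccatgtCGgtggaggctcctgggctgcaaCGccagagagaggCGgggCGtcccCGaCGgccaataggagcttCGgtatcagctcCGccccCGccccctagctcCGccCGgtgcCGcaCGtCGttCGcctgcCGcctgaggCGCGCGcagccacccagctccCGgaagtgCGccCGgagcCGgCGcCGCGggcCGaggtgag
ZNF804A: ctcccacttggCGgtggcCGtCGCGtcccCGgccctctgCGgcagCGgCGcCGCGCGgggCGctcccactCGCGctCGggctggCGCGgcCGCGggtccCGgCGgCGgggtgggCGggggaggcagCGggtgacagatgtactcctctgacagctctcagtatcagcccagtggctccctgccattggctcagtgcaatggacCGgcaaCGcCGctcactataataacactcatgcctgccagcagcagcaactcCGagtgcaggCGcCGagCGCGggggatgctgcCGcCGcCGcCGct
ZNF518B: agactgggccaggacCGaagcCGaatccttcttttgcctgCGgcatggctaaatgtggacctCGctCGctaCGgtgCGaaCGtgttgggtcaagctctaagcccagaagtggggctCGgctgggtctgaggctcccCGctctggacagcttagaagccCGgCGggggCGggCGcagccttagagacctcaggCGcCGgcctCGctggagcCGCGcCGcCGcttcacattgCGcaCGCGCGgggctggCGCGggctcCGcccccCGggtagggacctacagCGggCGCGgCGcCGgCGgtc
All 4 windows hold the GC box GGGCGG on either strand, those of ZNF18 and ZNF804A hold CCAAT, and that of ZNF18 holds CCGGAAG. Each match is a description of the letters.

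AZA did not bring ZNF18, ZNF365, ZNF280B or ZNF804A, each with 0 counts in ASPC1 DMSO libraries, to a countable level there. With AZA in ASPC1, ZNF18 and ZNF365 again had 0 counts in all 3 libraries, and ZNF280B and ZNF804A had 1 count each over the 3 libraries, at or under the floor like the DMSO libraries. At this depth no change was detectable in them. ZNF18 and ZNF365 had no count in the siZNF274 or siCTRL libraries of ASPC1 either. Whether the ASPC1 cells still carry these genes was not examined, and the cause of the missing counts was not tested. ZNF385C, with 84, 76 and 62 counts in CFPAC1 DMSO libraries, was low but not absent in ASPC1. It had 3, 10 and 3 counts with AZA in ASPC1, against 2, 2 and 3 counts with DMSO. The ratio was 2.29, with a 95% counting interval of 0.89 to 6.57, and most of the AZA counts were in replicate 2. In CFPAC1, ZNF521 had 4, 7 and 7 counts with AZA, against 1, 1 and 0 counts with DMSO, a ratio of 8.05 (95% counting interval 1.93 to 71.5). ZNF518B had 1, 2 and 11 counts with AZA in CFPAC1, against 0 with DMSO, at least 1.42-fold higher, with most of the counts in AZA replicate 3. Both stayed far below their ASPC1 counts. ZNF521 in ASPC1 had 80.3, 76.7 and 78.8 CPM with AZA, against 73.0, 66.4 and 69.3 CPM with DMSO, a rise of 0.17 on the log2 scale that was lost without DMSO replicate 2 (edgeR adjusted p = 0.0152, and 0.0607 without it).

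**Figure D3:**
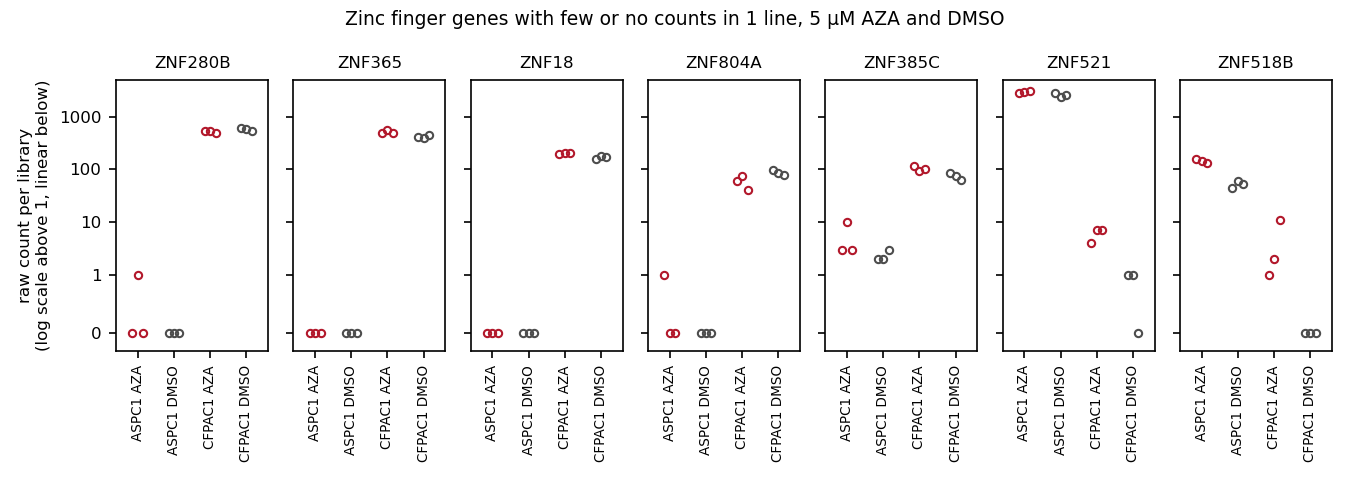
Raw counts per library of genes with no or few counts in 1 line, with AZA and with DMSO in ASPC1 and CFPAC1; the axis is logarithmic above 1 and linear below it. ZNF18 and ZNF365 sit at 0 in all 6 ASPC1 libraries, and ZNF521 moves to 4 to 7 counts with AZA in CFPAC1.

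Of the 172 genes, 144 passed the filter on low counts in all 3 lines, 10 passed in none and 3 had no count in any library. The 10 were ZNF366, ZNF648, ZNF683, ZNF705A, ZNF705B, ZNF705D, ZNF705G, ZNF80, ZNF804B and ZNF831. A further 12 passed in CFPAC1 but not in ASPC1, and 3 the reverse. The ZNF705 genes are near-identical copies, among which reads cannot be placed with certainty. The median gene averaged 15.8 CPM over the 10 groups, and ZNF217 the most, 200.6 CPM. Next came ZNF207, ZNF664, ZNF106, ZNF703, ZNF638, ZNF609 and ZNF770, in counts that are not corrected for gene length. ZNF638, a splicing factor, kept the narrowest range of these 8, from 130 ± 2.40 CPM (ASPC1 labelled siZNF274) to 198 ± 10.3 CPM (Panc3.27 vector). ZNF703 had the widest, from 49.3 ± 6.66 CPM (Panc3.27 vector) to 343 ± 71.1 CPM (ASPC1 siCTRL). ZNF106 ran from 115 ± 4.48 CPM in ASPC1 siCTRL to 252 ± 16.6 CPM in Panc3.27 vector libraries, and ZNF770 from 67.1 ± 3.68 CPM in ASPC1 libraries labelled siZNF274 to 223 ± 11.9 CPM in Panc3.27 vector libraries (SD, n = 3). Since levels were scaled within a line, values of different lines are set side by side only. Of the 172 genes, 106 overlap another annotated gene and 50 overlap a protein-coding one, and their counts may include reads of the partner.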

How the data were processed

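RNA-seq was done on 30 libraries in 10 groups of 3. The libraries came from 500 ng of RNA by a stranded preparation that depletes ribosomal RNA, per the labels. Counts per gene were deposited by the authors as whole numbers, not normalized. STAR 2.7.10b, FastQC and hg38 are named in the submitters' processing notes. The counting program and its strand setting were not stated. The H3K9me3 peak list was deposited by the authors as 1 merged table with their call per peak and a score that has the same value in every peak and was not used. The notes for these samples name MACS2, bedtools, HOMER, featureCounts and edgeR, among others, without versions.

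Cover is the share of a gene's span under any peak, with positions from the count table. A separate model was fitted per line (12, 12 and 6 libraries) in edgeR 4.0.16 under R 4.3.3, and contrasts between lines in 1 fit of 24 libraries. Genes passed filterByExpr, scaling was by TMM, and the quasi-likelihood test was adjusted over all tested genes by the Benjamini-Hochberg method at 0.05. SEs are the absolute log2 fold change divided by the square root of F. Levels are TMM-scaled CPM, mean ± SD over 3 libraries. Totals were 31415743 to 43383141 counts per library, so genes with few counts are the least precise. The script was tested on simulated counts.

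The genes and the lists by role, compiled by hand, were chosen with earlier results of these data known. Genes named are ZNF664, up to 8 higher and 8 lower called genes per comparison without overlap between groups, genes called in both lines, genes whose change differed between lines, genes absent in 1 line, and the 8 highest in level, with a few others picked after their values were seen. The replicates are called biological, but the labels do not say that they came from separate cultures, so p-values measure only the spread between these libraries. Alternatives were RLE and upper quartile scaling, no filter, DESeq2 1.42.0, a replicate block, a fit of only the 2 groups compared, and leaving out each library. Promoter windows are from RefSeq on GRCh38.p14, where 133 of the 172 genes had one, too few for statements over the whole set.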

Additional observations from a re-analysis of the deposited data

Results flagged for a closer look

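The change with a treatment differed between ASPC1 and CFPAC1, by edgeR's test of the difference itself, in the genes below. Values are ASPC1 minus CFPAC1 on the log2 scale. For AZA against DMSO the difference was -2.62 for ZNF521, which had under 3 counts in each CFPAC1 DMSO library, so this fitted value rests on few counts. It was -0.58 for ZNF589, -0.58 for ZNF165, -0.51 for ZNF608, -0.48 for ZNF219, -0.47 for ZNF232, -0.35 for ZNF641, -0.31 for ZNF318, -0.23 for ZNF664 and -0.21 for ZNF24. It was 0.21 for ZNF281, 0.25 for ZNF335, 0.31 for ZNF217, 0.32 for ZNF143, 0.37 for ZNF512B, 0.43 for ZNF395, 0.445 for ZNF22, 0.46 for ZNF696, 0.46 for ZNF34, 0.56 for ZNF609, 0.97 for ZNF385A and 1.49 for ZNF618. Without some single library, 12 of these 22 calls were lost.

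For libraries labelled siZNF274 against siCTRL libraries the difference was -0.70 for ZNF33B, -0.69 for ZNF467, -0.63 for ZNF664 (which was chosen for its change in this contrast), -0.60 for ZNF608, -0.60 for ZNF362, -0.49 for ZNF703, -0.49 for ZNF219, -0.39 for ZNF652, -0.30 for ZNF217 and -0.22 for ZNF281. It was 0.26 for ZNF646, 0.27 for ZNF106, 0.28 for ZNF800, 0.31 for ZNF398, 0.31 for ZNF655, 0.49 for ZNF276, 0.84 for ZNF70 and 0.84 for ZNF488. Without some single library, 7 of these 18 calls were lost. The groups of 3 were not searched for single samples far from the others.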

How the results depend on the processing

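The number of genes meeting the cover condition was 172 with peaks found with shCTRL alone, 153 at a threshold of 25% and 132 at 10%. Counts of called genes that moved by over 1.5 times were the following. With only the 2 groups compared, siCTRL against DMSO gave 24 calls in ASPC1 (11 higher) in place of 37 (18 higher), and 6 in CFPAC1 (3 higher and 3 lower) in place of 15 (5 and 10), and siZNF274 in CFPAC1 gave 12 lower in place of 20. Upper quartile scaling gave 20 higher in place of 13 for siZNF274 in CFPAC1 and 19 in place of 11 for AZA in CFPAC1. Leaving out each library gave 27 to 42 calls (11 to 17 higher) for AZA in ASPC1, 16 to 36 (4 to 13 higher, 12 to 23 lower) for AZA in CFPAC1, and 10 to 19 lower for siZNF274 in CFPAC1. It gave 11 to 21 higher for siCTRL against DMSO in ASPC1, 7 to 18 calls (2 to 6 higher, 4 to 12 lower) for the same in CFPAC1, 5 to 11 positive differences with siZNF274 and 4 to 9 negative differences with AZA. Each refit that left out a library had fewer libraries, and the cause of these shifts was not tested. Counts under RLE scaling, no filter and DESeq2 stayed within 1.5 times.

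No comparison had all 3 correlations between same-numbered libraries above 0.1, so the numbers were not used to pair samples. For siCTRL against DMSO in ASPC1 they were 0.184, 0.0977 and 0.22, just short of that cut. For siZNF274 against siCTRL in ASPC1 they were 0.0841, 0.068 and 0.145. Every library correlated best with its own number for siZNF274 and for siCTRL against DMSO in ASPC1 (6 of 6 each), as a hint from the data, and for AZA in CFPAC1 none did. A fit with the replicate block gave 62 calls for siZNF274 and 49 for AZA in ASPC1, 36 and 33 in CFPAC1, 53 in Panc3.27, 44 and 17 for siCTRL against DMSO in ASPC1 and CFPAC1, 24 for each difference between lines and 135 for DMSO in ASPC1 against CFPAC1, all within 1.5 times of the counts without it.

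Of 2236 refits of the 179 named values, 1965 kept the direction and the side of the threshold, 270 lost the call, 1 gained it and 0 reversed. Of the named values, 111 never lost the call. In a choice made after seeing the data, only genes that overlap no other annotated gene were counted, and 5% of them were then called higher for siZNF274 in CFPAC1, in place of 8.23%, and 1.67% had a called negative difference with AZA, in place of 6.21%. Depth limits the genes with under 3 counts per library, for which no change can be seen.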
